A study of Drosophila melanogaster with 3 samples.

Results

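The replication-dependent histone genes of Drosophila melanogaster lie in a tandem array on chromosome arm 2L, and Yorkie (Yki) density was examined across it in S2 cells, an established line of embryonic origin. The array was taken as dm3 positions 21410000 to 21545000 of 2L. It was set against the 135000 bp on each side, 21275000 to 21409999 on the left and 21545001 to 21680000 on the right. Members were the listed Yki peaks with their midpoint in the window, which numbered 0 of 3990 in the whole list, and the density samples centred in it, which numbered 1350 of 1685244. The 3 libraries were 2 chromatin immunoprecipitations with anti-Yki and 1 input made without antibody, all from formaldehyde-fixed S2 cells with no treatment named in the labels. Titles, source names and antibody entries all say this, whereas the samples' description entries speak of GAF and Yki ChIP from embryos, and the titles were followed. The files hold 1 list and 1 density track with the libraries pooled, so replicate errors cannot be given, no test between libraries was possible, and reads per library are unknown.

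Histones package DNA into nucleosomes: H2A, H2B, H3 and H4 form the core particle, and H1 binds the linker DNA between cores. The replication-dependent genes are transcribed in S phase, when new chromatin must be assembled, and their transcripts end in a stem-loop in place of a poly(A) tail. In flies all 5 kinds of gene sit together in the typical repeat unit, and the array is the site of the histone locus body, a nuclear body rich in histone transcription and processing factors. Yki is the coactivator that Hippo signalling keeps out of the nucleus, and it reaches DNA through partner proteins such as Scalloped.

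The RefSeq annotation at hand is of Release 6, another build, and was used for names and gene order alone. It lists 111 genes of the 5 families on 2L: 23 His1 (linker histone H1), 20 His2A, 23 His2B, 23 His3 and 22 His4. In gene order, 19 units ran His1, His2B, His2A, His4, His3, and 3 units lacked His2A. Between the first and last copy stood 4 histone pseudogenes and 0 other protein-coding genes. The nearest protein-coding neighbours outside were nrv3, which encodes a subunit of the sodium-potassium ATPase, before the array and Lamp1, a lysosomal membrane protein gene, after it. Copies were not placed at dm3 positions, so the window's name was not checked against an annotation of that build and no density is assigned to a single histone gene or family. The units are near-identical copies, so a short read from one can match many, and how reads with several matches were treated is not given in the sources used here.

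No Yki peak was listed in the histone window, and most of it carried no density at all. The window held 0 listed peaks, against 9 in the left flank and 6 in the right flank. The exact Poisson 95% intervals, which cover counting error only, ran from 0 to 3.69 peaks for the window, from 4.12 to 17.1 for the left flank and from 2.20 to 13.1 for the right flank. The upper limit for the window corresponds to 27.3 peaks per Mb, against 39.0 per Mb over the 897 peaks of the arm. That limit is taken over the whole window, of which 81.4% lay in runs at 0 of at least 5 kb. Peaks are grouped along the arm, so such limits overstate the precision. Of 169 windows of 135000 bp laid end to end along 2L, 28 (16.6%) held no listed peak, so an empty window of this size was not rare.

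The density track gives 1 smoothed value every 100 bp, with input subtracted, so that values below 0 mark places where weighted input outweighed ChIP. Density has no stated unit. Its size was read from isolated bumps, whose most frequent sum over samples was 4.98, taken as 1 ChIP tag, and whose most frequent sum below 0 was 1.80 in size, taken as 1 input tag. Sums divided by the first of these are given below as tag equivalents, which are net of input.

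In the histone window density ranged from -5.14 to 33.9 around a median of 0. In the left flank it ranged from -120 to 131 with a median of 12.9, and in the right flank from -129 to 193 with a median of 8.05. The window therefore spanned a much narrower range than either flank, both upward and downward. Its median lay 11.1 below that of the pooled flanks, whose own median exceeded the 2.55 of the whole arm. Mean density was 0.39 in the window, 13.0 in the left flank and 15.5 in the right flank. Over its length the window summed to 106 net tag equivalents, or 0.79 per kb, compared with 26.0 per kb in the left flank and 31.0 per kb in the right flank.

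**Figure D1:**
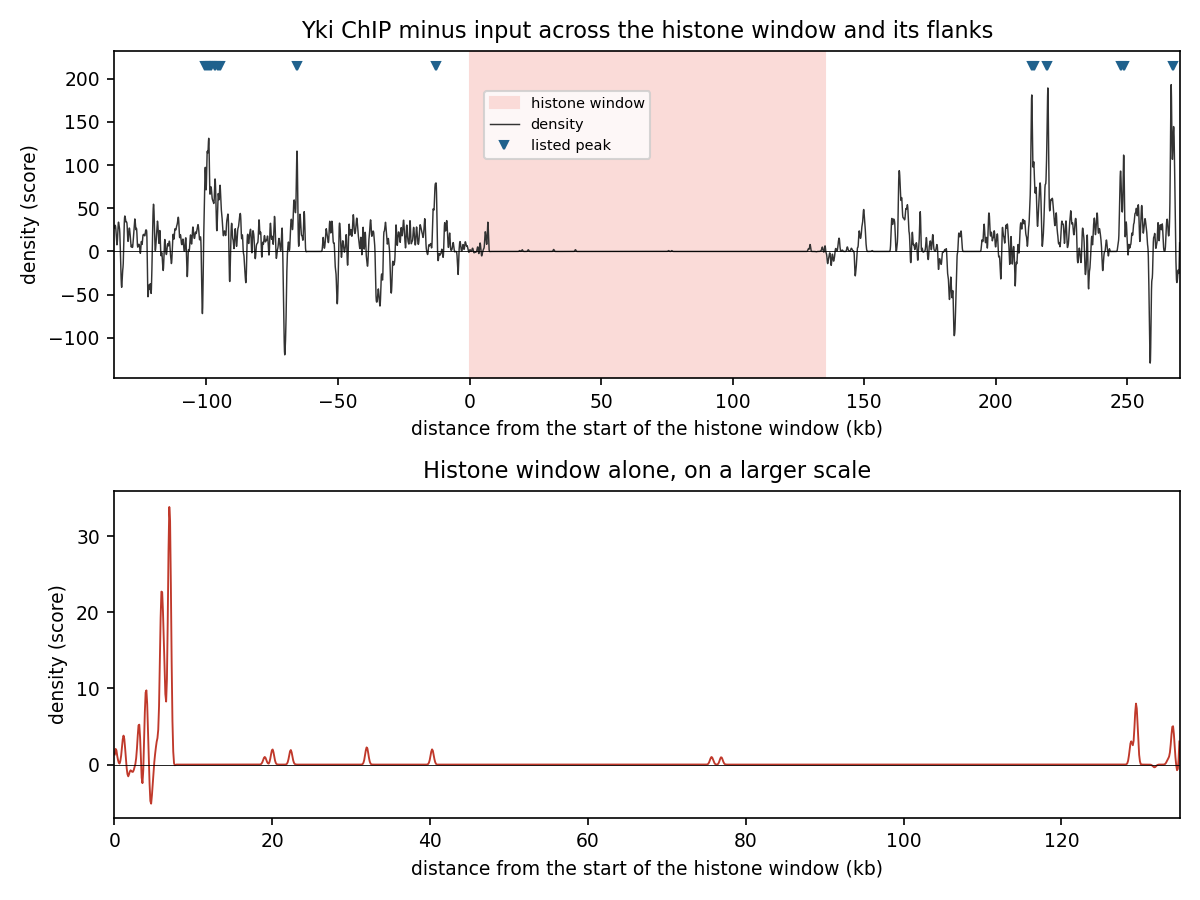
Density (score, ChIP with input subtracted) against distance from the start of the histone window in kb, for the window (shaded) with both flanks in the upper panel and for the window alone, on a larger vertical scale, in the lower panel; triangles mark listed peaks. The window stays at or near 0 apart from its first 7.9 kb, where several rises reach up to 33.9, and small bumps of up to 8.01 beyond them, while density in the flanks swings between -129 and 193.

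None of the window's samples lay inside a listed peak, against 2.07% in the left flank, 3.19% in the right flank and 2.26% over the arm. Samples at 0 (within 0.001) made up 83.0% of the histone window, 1120 of 1350. In the left flank they made up 3.78% and in the right flank 11.4%, and over the whole arm 3.83%. The window thus held 12.7% of all samples at 0 on 2L on 0.59% of the arm's samples. Samples below 0 made up 2.81% of the window, compared with 19.9% of the left flank, 19.6% of the right flank and 41.2% of the arm. Of the window's samples, 0 reached 50 or more, against 6.22% in the left flank, 9.56% in the right flank and 6.67% over the arm. Likewise 0 of the window's samples lay at -50 or lower, against 2.59% in the left flank, 1.85% in the right flank and 7.11% over the arm. Values far from 0 were thus missing from the window in both directions.

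In bins of 5 kb, 17 of the 27 bins of the histone window lay wholly at 0, and 1 bin had no sample at 0. Neither flank had a bin wholly at 0. The left flank had 25 of 27 bins without any sample at 0, and the right flank had 20 of 27. Stretches at 0 were also present in the flanks, where single bins reached 70% on the left and 90% on the right.

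**Figure D2:**
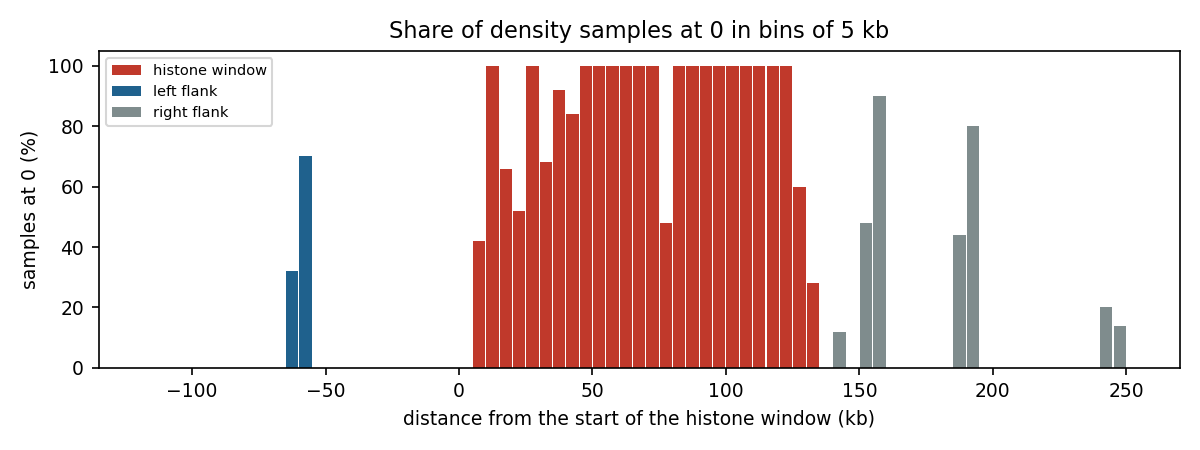
Share of density samples at 0 (within 0.001, in percent) in bins of 5 kb, by distance from the start of the histone window, with the window in red, the left flank in blue and the right flank in grey. Bins of the window reach 100% along most of its length, with lower bars at its ends and where bumps lie; the flanks have isolated bars, the highest at 90%.

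Set against the other 168 windows of the same length on 2L, the histone window had the highest share of samples at 0, the lowest maximum and the narrowest range. The next highest share was 54.0%, in the window at 15605000 to 15739999, which holds the longest run of samples at 0 on 2L, followed by 31.0% at 22760000 to 22894999. The median share over the other windows was 1.74%, and 9 of them exceeded 10%. The next lowest maximum was 39.3, and the median maximum of the other windows was 207. The window's own maximum of 33.9 lay below the 46.2 of the lowest listed peak on the arm.

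**Figure D3:**
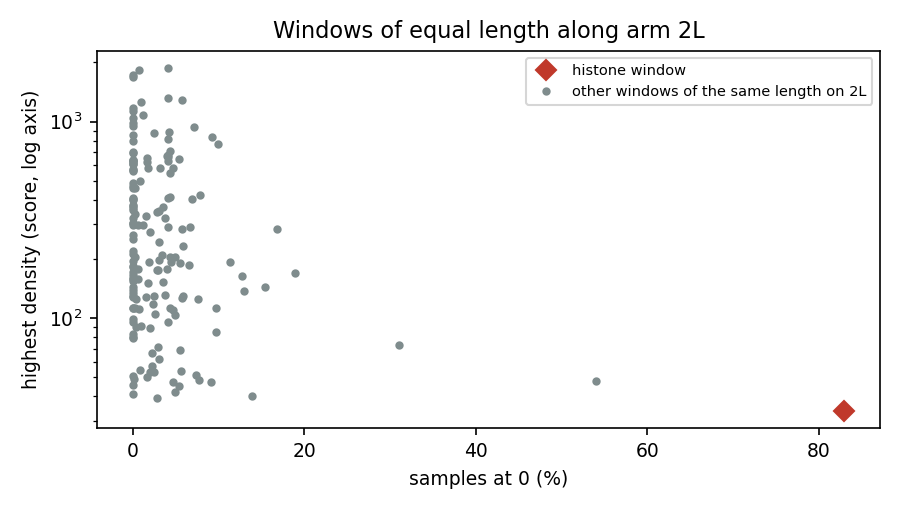
Highest density (score, log axis) against the share of samples at 0 (percent) for 169 windows of 135000 bp laid end to end along 2L; the diamond is the histone window and each dot is another window. The histone window stands at 83.0% and 33.9, to the right of and below all the dots.

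The samples at 0 formed long unbroken runs. In the histone window 5 runs of at least 5 kb covered 109.9 kb, or 81.4% of its length. The longest ran from 21487654 to 21537954 and was 50.4 kb long. It was the second longest run at 0 on 2L and the third longest on the 5 large arms, after one of 77.4 kb on X and one of 72.9 kb on 2L at 15654054 to 15726854. The next run in the window, from 21450854 to 21484954, was 34.2 kb long, the third longest on 2L. Only 6 of 1206 runs on the 5 large arms reached 30 kb, and 2 of those 6 lay in the histone window. Runs on 2L had a median length of 1.7 kb. The other long runs in the window measured 10.4 kb (21417954 to 21428254), 8.10 kb (21433154 to 21441154) and 6.80 kb (21442854 to 21449554).

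These runs bounded an inner stretch of 120.1 kb, from 21417954 to 21537954, in which 92.1% of samples were at 0. This stretch was defined from the values, so its emptiness is a description. It summed to 11.2 net tag equivalents, or 0.09 per kb, and 1 of its 1201 samples lay below 0, at -0.0015. No bump of the size of 1 input tag stood alone in it. Sums below 0 came to -9.11 tag equivalents per kb in the left flank and -8.04 per kb in the right flank. Outside the islands described next, neither ChIP nor input stood out there, and in these net values an absence of Yki cannot be told apart from a stretch in which neither ChIP nor input reads were counted.

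Between the runs stood 5 small islands of density, each with a sum above 0. The first, from 21428354 to 21430754, rose to 1.00 at 21429054 and 1.98 at 21430054 and summed to 3.01 tag equivalents. The second, from 21431554 to 21433054, peaked at 1.91 and summed to 1.93 tag equivalents. The third, around 21441954, peaked at 2.25 and summed to 2.29 tag equivalents. The fourth, around 21450254, peaked at 2.00 and summed to 2.00 tag equivalents. The fifth, from 21485054 to 21487554, had maxima of 1.00 and 0.95, 1.2 kb apart, and summed to 1.92 tag equivalents. Each island thus had a net size of about 2 or 3 ChIP tags, which is too small to compare the islands with each other. Since input is subtracted, these sums do not count the tags present. The first 4 islands lay between 21428354 and 21450754, and 34.2 kb and 50.4 kb at 0 stood before and after the fifth.

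The ends of the histone window differed from each other. They are what the inner stretch leaves out, so their fewer samples at 0 follow in part from its definition. At the left end, before 21417954, density stood at 0 in 0 of 79 samples and ranged from -5.14 to 33.9 with a median of 1.88. A pair of rises reached 22.7 at 21415954 and 33.9 at 21416954, after which density was back at 0.17 by 21417554. This end covered 5.85% of the window's length and held 73.5% of its net density. The rise of 33.9 lay outside every listed peak. At the right end, after 21537954, an island from 21538054 to 21540254 reached 8.01 at 21539454 and summed to 11.1 tag equivalents. It was followed by a dip to -0.36 at 21541754, whose sum of -0.36 tag equivalents is that of 1 input tag. Density at this end did not pass 8.01, and 14 of its 70 samples were at 0.

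No period could be read along the repeats. The autocorrelation of density was computed at lags from 3 to 7 kb to take in a unit of about 5 kb. In the histone window it was highest at 3 kb (Pearson r = 0.19 across positions), which is the lower limit of that range. At a lag of 5.00 kb it was 0.01 and at 4.8 kb it was 0.01. The value at 3 kb was part of a local maximum, with 0.19 at 2.9 kb and 0.16 at both 2.8 and 3.1 kb. A smaller local maximum of 0.06 stood at 5.8 kb. Below the range, a larger one of 0.43 stood at 0.9 kb. Density varied most at the left end of the window, where its standard deviation was 8.42 against 0.24 in the inner stretch. That end held 73.5% of the window's net density, so the window's values at these lags rest mainly on it. In the left flank the highest value was 0.08 at 5.50 kb and in the right flank 0.23 at 5.30 kb. The right flank's curve was broad and stood at 0.14 even at 3.9 kb, its lowest point between 2 and 6 kb. Values at 5.00 kb were higher in both flanks than in the window. The window was mostly at 0, so these are not like measures, and no period is read from them. In the inner stretch the highest within that range was 0.06 at 3.3 kb, and at 5.00 kb it was -0.04. Outside the range, the inner stretch had higher maxima of 0.16 at 2.3 kb, 0.20 at 8.3 kb and 0.19 at 9.6 kb. These lags are also distances between maxima of the first 4 islands, given next. Distances between neighbouring maxima of the islands ran from 1.00 to 35.4 kb within the inner stretch, including 2.30, 9.60 and 8.30 kb between the first 4 islands. Positions share libraries and smoothing, and these values are descriptions with no test. At a lag of 5.00 kb, 49 pairs of samples in the window were away from 0 on both sides, so the values at such lags rest on few samples.

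**Figure D4:**
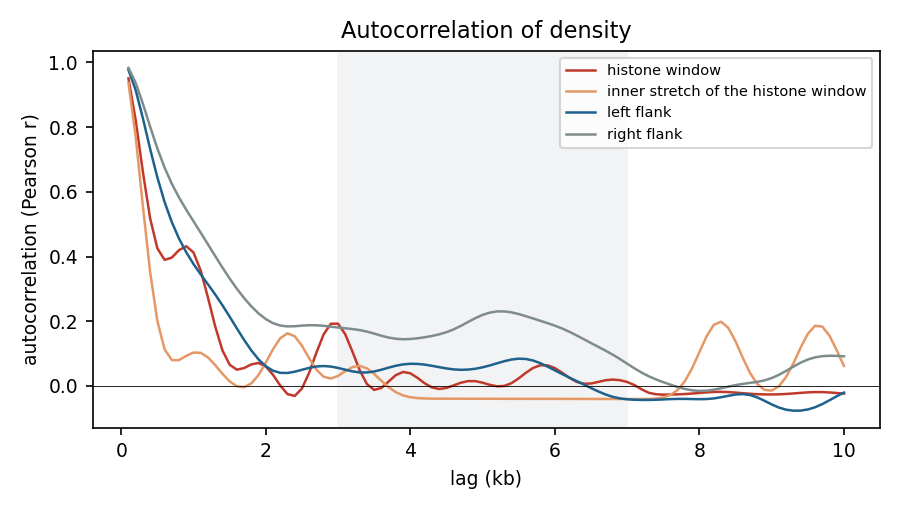
Autocorrelation of density (Pearson r) against lag in kb for the histone window, its inner stretch and both flanks; the shaded band marks the lags from 3 to 7 kb. Within the band, the curve of the histone window is highest at the 3 kb edge and close to 0 at 5.00 kb. Below the band it has a higher local maximum at 0.9 kb. The curve of the inner stretch lies below 0 at 5.00 kb and has higher maxima outside the band, at 2.3, 8.3 and 9.6 kb. The right flank reaches 0.23 at 5.30 kb.

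The median height of the listed peaks was below that of the arm in the left flank and above it in the right flank. None of these peaks lay next to the histone window. Heights of the 9 left peaks ran from 66.9 to 131 with a median of 83.9, and those of the 6 right peaks from 92.9 to 193 with a median of 146. The median over the arm was 122. On the left, 7 of the 9 formed a group between 21309406 and 21315109, with heights from 66.9 to 131, and another at 21344193 to 21344648 reached 116. The peak nearest to the window, at 21397156 to 21397377, reached 79.3 at a distance of 12.6 kb. On the right the nearest, at 21623336 to 21623997, reached 181 at a distance of 78.3 kb, and the highest, at 21676478 to 21678061, reached 193. Between them, peaks at 21624426 to 21624628 and at 21629045 to 21630163 reached 104 and 189, and a closely spaced pair at 21657438 to 21657637 and at 21658481 to 21658906 reached 92.9 and 111. The gap without a listed peak around the array was 226.0 kb long, the 16th longest of 896 on the arm, where the longest was 477 kb and the median 4.67 kb.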

How the data were processed

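The authors deposited a list of intervals (chromosome, start and end only) and a density score, 1 value per 100 bp, described by the file header as smoothed and background-subtracted; the header joins codes of 2 libraries with 1 input. The codes match no sample label and were taken to be these libraries. CASAVA 1.7.0, BWA, Bowtie and dm3 are named in the submitters' processing notes without roles; the peak caller, and whether reads with several matches were kept, are not stated there or in the file header. Density per library is unknown, as is depth.

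From these files, with Python 3.11.15, numpy 2.4.6, pandas 2.3.3 and scipy 1.17.1, samples were assigned by their centre and peaks by midpoint, and starts were made 1-based. A height is the highest sample in an interval. Samples within 0.001 were counted as at 0. The tag sizes are the most frequent sums of isolated bumps of at most 17 samples (1156 of 3491 above 0 and 893 of 1564 below 0 within 2% of them). The ratio of the 2 tag sizes, run lengths and lags were tested on simulated data. The simulated period had a bump in every unit, so recovery of a period from a track mostly at 0 was not tested. The window and lists were chosen with earlier results of these data known; the inner stretch, runs at 0, islands and windows of equal length were chosen after the values were seen. Planned searches of histone promoters, and genes outside the array, such as those of histone variants or histone locus body proteins, were not analysed here, since no sequence and no annotation of dm3 was used. Items were named by rule: all listed intervals of window and flanks, their highest and lowest samples, and the 5 histone families.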

Additional observations from a re-analysis of the deposited data

How the results depend on the processing

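The count of 0 listed peaks was the same with any overlap of 1 bp, with intervals joined across 500 bp and with the window widened by 10 kb on each side. None of these settings could have changed it, since the nearest listed peaks lay 12.6 kb and 78.3 kb from the window. The median difference from the flanks (-11.1) kept its sign throughout. It was -12.9 against the left flank, -8.05 against the right flank, -13.8 for means, -12.6 without samples at 0, -10.5 without samples in listed intervals, -11.8 with flanks of 270 kb and -11.1 with the window narrowed by 10 kb. Where samples at 0 were kept, the window's own median was 0, so those differences of medians only restate the flank median. The share at 0 was 74.5% for exactly 0, 89.0% within 0.36, 91.7% in the narrowed window and 92.1% in the inner stretch, against a median of 1.74% in the other windows of 2L (these last 2 chosen after seeing the data). The share below 0 was 0.74% under -1, 0% under -50 and 0.087% in the narrowed window. Stricter limits can only lower that share. The strongest lag (3 kb) was unstable: 5.80 kb by ranks, 6.43 kb by periodogram, 4.6 kb in the second part of the window and 3.3 kb in the inner stretch, and it was 3 kb in the first part, after subtraction of a running median, and without samples at 0. For these changes the cause was not tested. No paired analysis was possible because the libraries are pooled in both files, and for the same reason none could be left out. Since depth is unknown, a limit of detection is not given.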
